A study of Mus musculus with 8 samples.

Results

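The genes described here encode subunits of the receptors for glutamate, GABA and glycine. They were chosen by symbol, from the probes whose accession maps to the AMPA (Gria), kainate (Grik), NMDA (Grin1, Grin2, Grin3), metabotropic glutamate (Grm), GABA-A (Gabra, Gabrb, Gabrg, Gabrd, Gabre), GABA-B (Gabbr) or glycine (Glra) receptor families. The rule found 44 genes among the 20641 genes of the array, covered by 66 probes, and no measured value entered it. The samples were primary spheres grown for 8 days from cells of the superior mesenteric ganglion of 3-week-old TH-MYCN hemizygote mice on the 129+Ter/SvJcl background. All cultures carried the transgene, in which the tyrosine hydroxylase promoter drives human MYCN in sympathetic cells, so no wild-type spheres enter the comparison. Cells of each ganglion were divided between RA (+) medium, which contains retinoic acid, and RA (-) medium, which does not, giving 4 animals with 1 array in each medium. Expression was measured on 1-colour Agilent arrays.

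Glutamate is the main excitatory transmitter of the brain, and GABA and glycine are the main inhibitory ones. AMPA, kainate and NMDA receptors are cation channels opened by glutamate, GABA-A and glycine receptors are chloride channels, and the metabotropic glutamate and GABA-B receptors act through G proteins. Fast transmission in sympathetic ganglia runs mainly through nicotinic acetylcholine receptors, but sympathetic neurons are also known to carry GABA-A and some glutamate receptors.

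A level is the log2 processed signal of a gene's brightest probe minus the 75th percentile of its array, and a change is the level in RA-free medium minus that in RA-containing medium. Levels of different probes are not set against each other, since probes differ in brightness. All 8 arrays lay on 1 slide and were scanned together. Their 75th percentile was 228 to 306 intensity units, over a median local background of 26 to 29, and arrays of one medium correlated at 0.982 to 0.994 over the tested genes. RA-free array 1 stood nearer the RA-containing arrays than the rest of its medium did, scoring 42.3 on the first principal component against 59.5 to 66.2. The retinoic acid receptor gene Rarb served as a check of the media, with levels of 4.36 ± 0.04 with RA and 2.58 ± 0.18 without it (SD, n = 4). Cyp26b1, the retinoic acid hydroxylase, read 7.94 ± 0.06 with RA and was well above background on 1 of 4 arrays without it. Mycn did not pass (change −0.18, limma adjusted p = 0.198), and whether its probe reads the human transgene was not tested. All 12 listed markers of sympathetic neuroblasts, among them Dbh and Th, were well above background.

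Most of these receptor genes were weakly detected or not detected. To be tested, a gene needed a probe that cleared background well (the scanner software's flag) on 4 or more of the 8 arrays, which 25 of the 44 genes met, beside 65.6% of all genes. Of the 25, 15 were well above background on all 8 arrays. Another 13 genes were not well above background on any array by any of their probes, namely Grin2a, Grin2d, Grm3, Grm6, Grm8, Gabra2, Gabra4, Gabrb1, Gabre, Gabrg1, Gabrg3, Glra3 and Glra4. The remaining 6 reached that mark on 1 or 2 arrays: Grm4 on 2 RA-containing arrays, Gabra5 and Grin2b on 1 RA-containing array each, Grin2c on 1 array of each medium, and Gabra6 and Glra1 on 1 RA-free array each. For these 19 genes the arrays show only that the signal was at or near background, not that the transcript was missing.

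**Figure D1:**
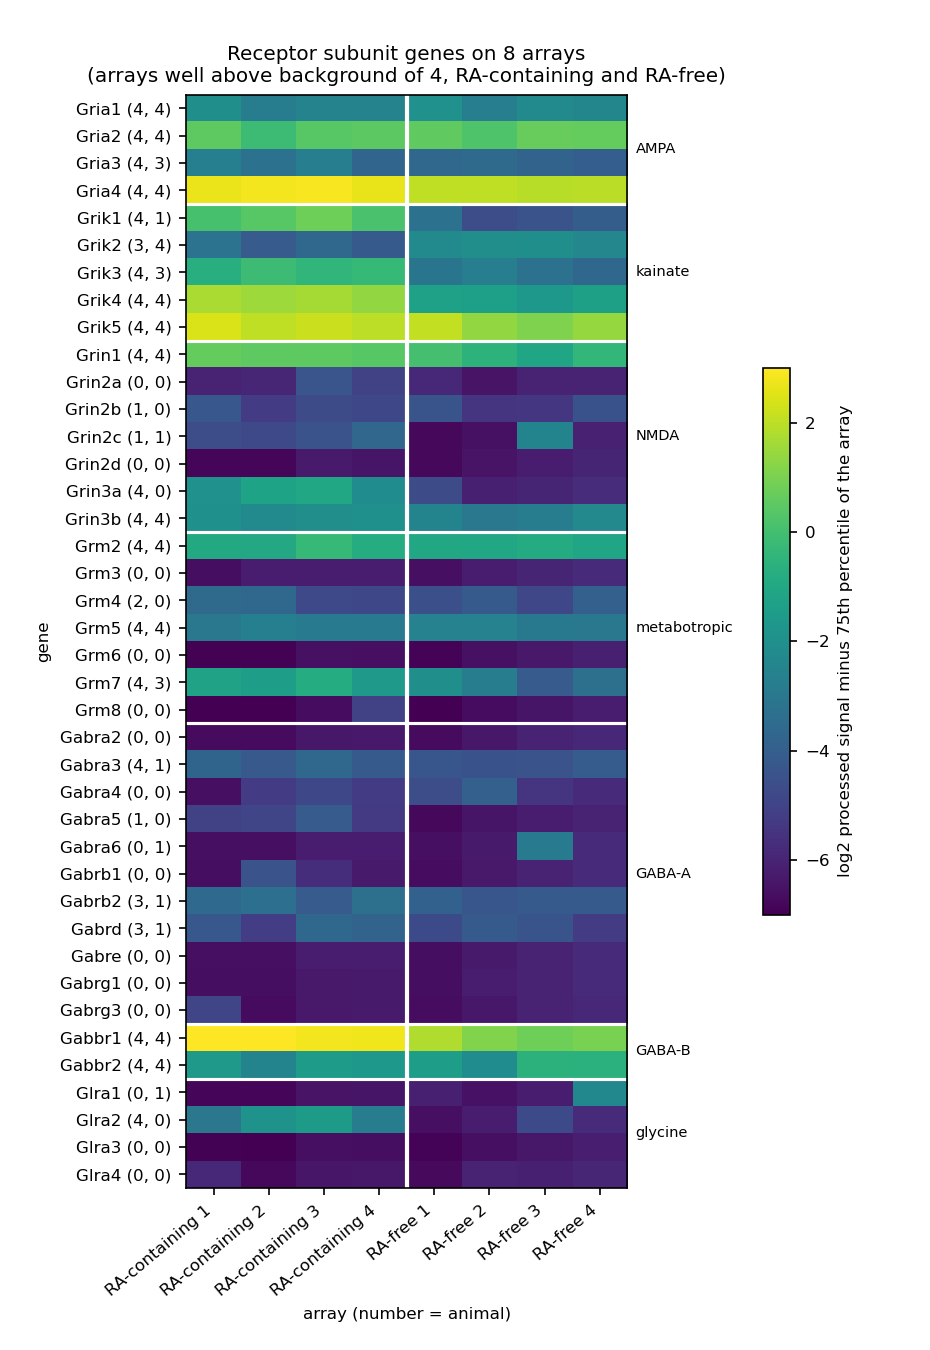
Levels of 40 of the 44 receptor subunit genes (rows, by family) on the 4 RA-containing and 4 RA-free arrays (columns), as log2 processed signal minus the 75th percentile of the array; numbers in brackets count the arrays of each medium on which the probe was well above background. Colours compare arrays within a row, not genes with each other: Grik1, Grik3, Grik4, Grin3a, Glra2 and Gabbr1 are darker on the RA-free arrays and Grik2 is lighter.

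Without retinoic acid the tested receptor genes were lower more often than higher. Genes are called changed at an adjusted p under 0.05 in a limma fit over all 13539 tested genes, with the animal as a block. By that rule 14 of the 25 members were called lower, beside 28.2% of all tested genes, and 2 were called higher, beside 36.1%. Calls in either direction came to 64% of the members and 64.3% of all tested genes, so the members were not called more often than other genes. Calls with a size of 1 or more (log2) were made for 8 members that were lower (10.6% of all tested genes) and 1 that was higher (7.52%). The 4 RA-free arrays all lay below the 4 RA-containing arrays for 11 members (23.8% of all tested genes) and all above them for 1 (29.5%). The median change was −0.55 over the tested members and 0.07 over all tested genes. Grin3a and Glra2 passed the filter through the RA-containing arrays alone and so had to be lower. Among the 15 members measured on all 8 arrays, 7 were called lower, beside 26.1% of the 12155 genes so measured, and 1 was called higher, beside 38.6%. All 16 called members moved the same way in all 4 animals. The fit is paired by animal, so a call itself favours such agreement, which adds no separate support. In whole spheres, fewer cells of a type and less RNA per cell cannot be told apart.

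Scaling the arrays to their spike-in controls left 8 members called lower, namely Grik1, Grik3, Grik4, Grin1, Grin3a, Grm7, Gabbr1 and Glra2, with the same number of 2 called higher. That scaling called 5184 of the 13539 tested genes, 63.1% of them higher, and moved the median change of all genes to 0.23.

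**Figure D2:**
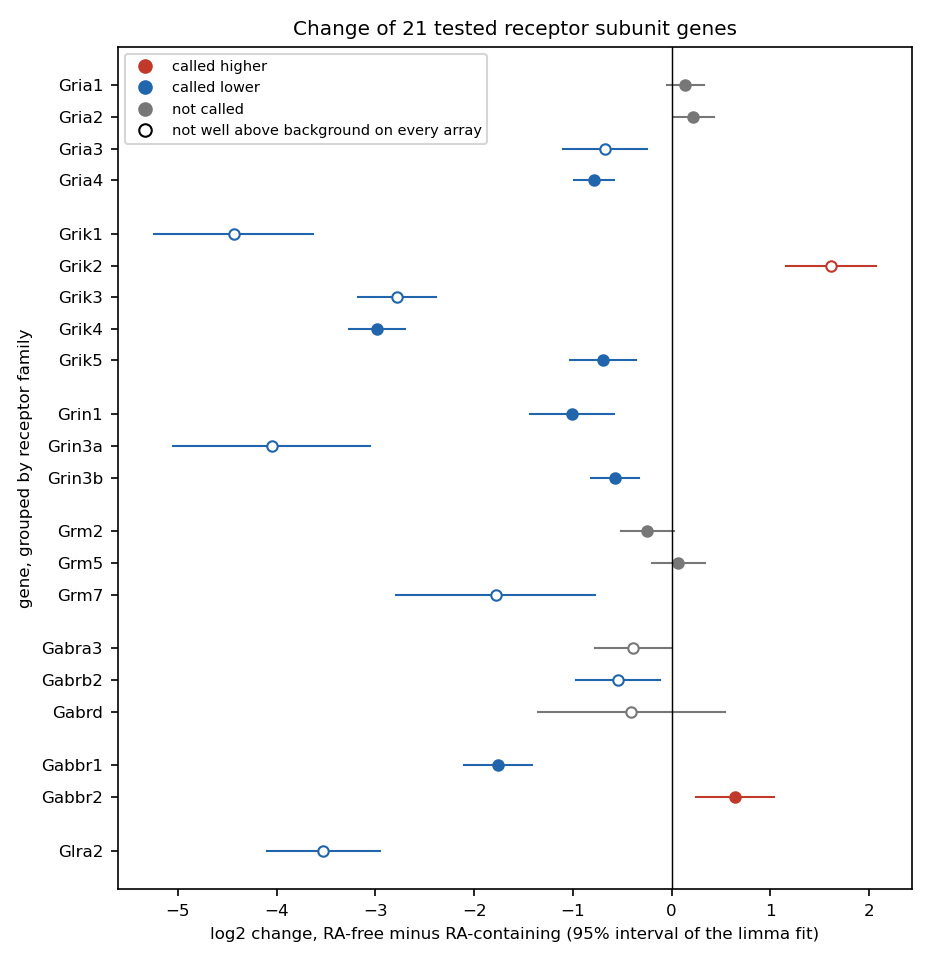
Change of 21 of the 25 tested genes, RA-free minus RA-containing medium, on the log2 scale, with the 95% interval of the limma fit (4 animals); red points were called higher, blue points lower and grey points not called, and open points mark genes not well above background on every array. The kainate genes span the widest range, from −4.44 for Grik1 to 1.61 for Grik2.

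The kainate receptor family changed throughout: Grik1, Grik3, Grik4 and Grik5 were lower and Grik2 was higher without retinoic acid. Grik1, Grik2 and Grik3 encode subunits that can form channels on their own (GluK1, GluK2 and GluK3), while Grik4 and Grik5 encode the high-affinity subunits GluK4 and GluK5, which need one of those partners. Grik4 (NM_175481) was well above background on every array. Its levels on arrays 1 to 4 were 1.74, 1.55, 1.64 and 1.37 with RA and −1.27, −1.37, −1.68 and −1.32 without. The media did not overlap and lay far apart for the spread within each, a 7.93-fold difference (change −2.99, SE 0.11, limma adjusted p = 5.34e-05).

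Grik1 (NM_146072) stood at 0.08, 0.40, 0.78 and 0.13 with RA and at −3.23, −4.63, −4.44 and −4.07 without. Only RA-free array 1, the highest of the 4, was well above background there, so the change of −4.44 (SE 0.33, limma adjusted p = 0.000200) has no exact size; it was −2.31 under normexp with quantile normalization. Grik3 (NM_001081097) stood at −0.74, −0.14, −0.42 and −0.31 with RA and at −3.12, −2.73, −3.26 and −3.62 without, where 3 of 4 arrays were well above background. All 4 animals lost signal by a similar amount (change −2.78, SE 0.16, limma adjusted p = 0.000110; −1.43 under normexp with quantile normalization). Grik5 differed less, with 2.44, 2.05, 2.21 and 2.00 with RA and 2.07, 1.37, 1.07 and 1.43 without. It was lower in each animal, but RA-free array 1 reached into the RA-containing range (change −0.70, SE 0.14, limma adjusted p = 0.00601), and the call was lost under spike-in scaling (adjusted p = 0.103 by limma).

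Grik2 (NM_001111268) went the other way. Its levels were −3.20, −4.12, −3.66 and −4.17 with RA, where 3 of 4 arrays were well above background, and −2.24, −2.07, −2.04 and −2.36 without RA. Every RA-free array lay above every RA-containing array, a 3.06-fold rise (change 1.61, SE 0.18, limma adjusted p = 0.000802; 0.53 under normexp with quantile normalization). A second Grik2 probe was well above background on 3 RA-free arrays and on no RA-containing array. In all, 4 of the 5 kainate subunit genes were called lower and 1 higher, beside 28.2% and 36.1% of all tested genes.

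**Figure D3:**
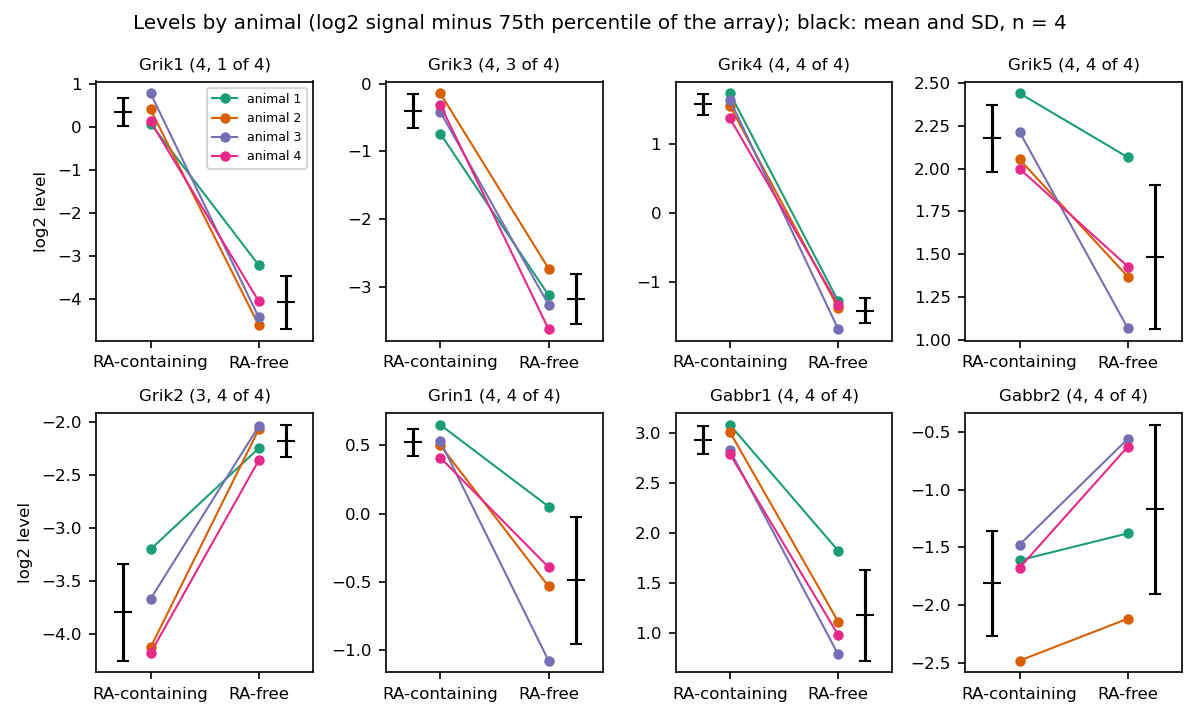
Levels of 8 receptor genes by animal, as log2 processed signal minus the 75th percentile of the array, with RA-containing and RA-free arrays of an animal joined by a line; black marks show the mean and SD of 4 arrays, titles count the arrays well above background in each medium, and each panel has its own axis. Lines fall in all 4 animals for Grik1, Grik3, Grik4, Grik5, Grin1 and Gabbr1 and rise in all 4 for Grik2 and Gabbr2.

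The promoter windows of Grik2, which rose, and of Grik3 and Grik4, which fell, are shown to let genes of one family with opposite changes be compared. They run from 250 bases before to 50 bases after the RefSeq start site (build GRCm38.p6), at chr10:49788705-49789004 on the minus strand for Grik2, chr4:125490446-125490745 on the plus strand for Grik3 and chr9:42944322-42944621 on the minus strand for Grik4. Capitals mark CG dinucleotides.
Grik2: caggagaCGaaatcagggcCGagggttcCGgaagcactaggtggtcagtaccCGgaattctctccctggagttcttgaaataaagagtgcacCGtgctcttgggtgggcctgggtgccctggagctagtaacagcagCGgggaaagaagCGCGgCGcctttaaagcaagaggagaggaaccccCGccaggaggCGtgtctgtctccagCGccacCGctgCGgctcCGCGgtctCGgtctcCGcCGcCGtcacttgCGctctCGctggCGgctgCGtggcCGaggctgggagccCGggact
Grik3: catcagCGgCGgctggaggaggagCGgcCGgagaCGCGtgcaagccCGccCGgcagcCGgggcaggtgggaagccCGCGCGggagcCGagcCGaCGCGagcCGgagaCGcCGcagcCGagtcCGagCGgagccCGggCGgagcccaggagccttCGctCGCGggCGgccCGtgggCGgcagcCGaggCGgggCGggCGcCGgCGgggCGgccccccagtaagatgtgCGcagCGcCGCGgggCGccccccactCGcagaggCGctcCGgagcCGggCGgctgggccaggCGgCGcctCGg
Grik4: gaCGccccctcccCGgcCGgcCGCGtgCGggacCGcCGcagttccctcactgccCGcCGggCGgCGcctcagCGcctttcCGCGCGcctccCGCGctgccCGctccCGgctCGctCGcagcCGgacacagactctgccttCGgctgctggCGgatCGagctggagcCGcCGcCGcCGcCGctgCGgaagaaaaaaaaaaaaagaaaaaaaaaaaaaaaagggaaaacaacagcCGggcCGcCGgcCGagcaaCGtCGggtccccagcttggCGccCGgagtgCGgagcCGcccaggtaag
The printed windows were rich in CG dinucleotides, with 26 in Grik2, 50 in Grik3 and 42 in Grik4. The median was 7 over all 32851 windows of the table and 12 over the 37 windows found for 30 of the receptor genes. Grik5, also called lower, had only 10 in its window, which is not printed. The hexamer AGGTCA, the core of many nuclear receptor binding sites, was searched on both strands. It was in 2 of the 37 windows, beside 16.3% of all windows, and those belonged to Grm8 and Grin2c, neither of which was tested for a change. The variants GGGTCA as well as AGTTCA together with GGTTCA were counted too when looking for repeats. Direct repeats of these hexamers with a spacer of 1, 2 or 5 bases, the arrangement bound by retinoic acid receptors, were in 0 of the 37 windows and in 0.588% of all windows. The search covers these letters in these windows alone.

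Of the 7 NMDA receptor genes 3 were tested. Grin1, Grin3a and Grin3b were all called lower without retinoic acid, beside 28.2% of all tested genes. Grin3a passed the filter through the RA-containing arrays alone, so its direction was fixed by that filter. Grin1 encodes the subunit that every NMDA receptor needs, Grin2a to Grin2d the glutamate-binding subunits, and Grin3a and Grin3b glycine-binding subunits that reduce calcium entry. Grin1 (NM_001177656) stood at 0.65, 0.50, 0.53 and 0.41 with RA and at 0.05, −0.53, −1.08 and −0.39 without. The media did not overlap, although the RA-free arrays were more spread out, with array 1 the highest (change −1.01, SE 0.17, limma adjusted p = 0.00346). A dimmer Grin1 probe, which cleared background on only 1 RA-free array, gave −0.58 and did not pass in a fit over all probes (limma adjusted p = 0.0725). Grin3a stood at −1.95, −1.21, −0.98 and −2.14 with RA while without RA its readings of −4.66 to −6.13 all failed to clear background. By the bound described next it was at least 6.57-fold lower without RA (measured means −1.57 and −5.62, limma adjusted p = 0.000505). This bound takes each dim reading as no lower than the dimmest signal that counted as well above background on its array. That signal was −4.65 to −3.86 on the RA-free arrays. It is not a strict limit, because brighter readings can also fail to clear background. The RA-free Grik3 readings, all −3.62 or above, did not all clear it. Each fold given as "at least" holds only under this rule. Under normexp with quantile normalization the Grin3a change of −1.14 was smaller than its bound. That setting adds an offset of 50 to each signal, which shrinks log2 changes of dim probes. Its values and the bounds are therefore not on a like scale. Grin3b read −1.96, −2.24, −2.05 and −1.97 with RA and −2.49, −3.00, −2.76 and −2.28 without. The media were separate by a small margin (change −0.58, SE 0.10, limma adjusted p = 0.00363; −0.28 under normexp with quantile normalization), and the call was lost under spike-in scaling (adjusted p = 0.219 by limma). None of the 4 Grin2 genes was tested, each being at or near background in both media.

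The promoter window of Grin1 is shown because it was the only receptor gene window that held the E-box CACGTG, the core sequence bound by MYC proteins including MYCN. It lies at chr2:25319138-25319437 on the minus strand (build GRCm38.p6), and capitals mark the E-boxes.
Grin1: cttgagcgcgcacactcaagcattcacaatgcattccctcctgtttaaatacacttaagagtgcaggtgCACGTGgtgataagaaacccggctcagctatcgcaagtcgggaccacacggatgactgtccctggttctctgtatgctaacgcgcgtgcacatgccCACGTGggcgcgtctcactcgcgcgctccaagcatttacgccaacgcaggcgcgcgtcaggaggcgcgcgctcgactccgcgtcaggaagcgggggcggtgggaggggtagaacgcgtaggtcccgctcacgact
The motif occurred 2 times in this window, at −181 and −85 relative to the start site, while 7.15% of all windows held it. CACGTG reads the same on both strands and was counted once per site. Binding was not measured here.

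AMPA receptor genes, whose products carry most fast excitation in the brain, changed less. Gria4 (NM_001113180) was at 2.71, 2.81, 2.90 and 2.66 with RA and at 2.03, 2.04, 1.92 and 1.95 without. The media were clearly separate and each was tight, a 1.72-fold difference (change −0.79, SE 0.08, limma adjusted p = 0.000562), with −0.50 by a second probe; under spike-in scaling it narrowly missed the threshold (adjusted p = 0.0520 by limma). Gria3 was called lower (change −0.67, SE 0.17, limma adjusted p = 0.0161), with overlapping arrays of −2.68 to −3.74 and −3.56 to −4.01. Its change was −0.24 under normexp with quantile normalization, and its call was lost without animal 1 (adjusted p = 0.0531 by limma) or animal 3 (0.0540) and under spike-in scaling (0.120). Gria2, whose subunit makes AMPA receptors nearly impermeable to calcium once its transcript is edited, stood at 0.52, −0.16, 0.41 and 0.46 with RA and at 0.57, 0.25, 0.66 and 0.63 without. It was higher in all 4 animals by a small amount and did not pass (change 0.22, 95% interval 0.01 to 0.43, limma adjusted p = 0.0629), although its second probe did, with a change of 0.32 (limma adjusted p = 0.0125 over all probes). Gria1 read −2.03, −2.80, −2.55 and −2.54 with RA and −1.95, −2.74, −2.25 and −2.43 without, nearly the same range, and was not called (change 0.14, 95% interval −0.05 to 0.33).

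Of the 8 metabotropic glutamate receptor genes 4 were tested, and only Grm7 was called, as lower, beside 28.2% of all tested genes. Its product, mGluR7, is a presynaptic receptor that lowers transmitter release. Grm7 (NM_177328) stood at −1.24, −1.41, −0.80 and −1.64 with RA and at −2.01, −2.77, −4.13 and −3.31 without, with 3 of 4 RA-free arrays well above background. The media did not overlap, but the RA-free arrays ranged widely (change −1.78, SE 0.41, limma adjusted p = 0.0107; −0.85 under normexp with quantile normalization). Grm5, a group I receptor coupled to phospholipase C, and Grm2, a group II receptor that inhibits adenylyl cyclase, were well above background on all arrays and were not called. Grm5 read −2.98, −2.67, −2.88 and −2.89 with RA and −2.58, −2.58, −2.97 and −3.01 without (change 0.069, 95% interval −0.20 to 0.33). The arrays overlapped and the animals disagreed in direction. Grm2 read −0.92, −0.98, −0.30 and −0.83 with RA and −1.02, −0.99, −0.85 and −1.14 without (change −0.25, 95% interval −0.51 to 0.02). It was lower in all 4 animals, and it passed with the 75th percentile of detected probes (change −0.34, adjusted p = 0.0379 by limma).

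GABA-B receptors work as pairs of a Gabbr1 product, which binds GABA, and a Gabbr2 product, which couples to the G protein, and the brightest probes of these genes moved in opposite directions. Gabbr1 (NM_019439) stood at 3.09, 3.01, 2.83 and 2.79 with RA and at 1.82, 1.11, 0.78 and 0.98 without. RA-free array 1 was again the highest of its medium, yet far below every RA-containing array, and the difference was 3.39-fold (change −1.76, SE 0.14, limma adjusted p = 0.000253). Its other probes both gave −1.58. Gabbr2 (NM_001081141) stood at −1.61, −2.48, −1.48 and −1.68 with RA and at −1.38, −2.12, −0.56 and −0.63 without. The arrays overlapped, since animals differed widely, but each animal was higher without RA (change 0.64, SE 0.16, limma adjusted p = 0.0151; 0.42 under normexp with quantile normalization). The call depends on pairing the arrays by animal (adjusted p = 0.152 by limma without the block) and was lost without animal 3 (0.0590) or animal 4 (0.05002, just over the threshold). A dimmer Gabbr2 probe gave −0.70 (limma adjusted p = 0.0130 over all probes) although it cleared background on only 1 RA-free array, and the mean of both probes was −0.03. The direction for Gabbr2 therefore rests on the choice of probe, whereas all 3 probes of Gabbr1 fell.

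Most GABA-A receptor genes were not tested, and the changes by their brightest probes were all under 1 in size (log2). The channel is a pentamer, most often of alpha, beta and gamma subunits. Of the 14 genes 6 were tested, and 2 of these were called lower, a share near the 28.2% of all tested genes. Gabrb2, a beta subunit, was called (change −0.55, SE 0.17, limma adjusted p = 0.0345) on 3 RA-containing arrays and 1 RA-free array well above background. Its change was −0.13 under normexp with quantile normalization, and 7 of its 13 alternatives lost the call, among them the fits without animal 1, 2 or 4 (adjusted p = 0.0501, 0.117 and 0.117 by limma). Gabrd, the delta subunit found outside synapses, was not called at −0.41 (95% interval −1.36 to 0.54), a wide interval, and passed the test without animal 2 (change −0.89, limma adjusted p = 0.0199). Gabra3 was not called by its brightest probe (change −0.39, limma adjusted p = 0.0696), which passed without animal 4 (change −0.55, adjusted p = 0.0239 by limma) and also when arrays were scaled on detected probes (change −0.49, adjusted p = 0.0355 by limma). Its other probe cleared background with RA on all 4 arrays and without RA on none. By the rule used for Grin3a this probe was at least 2.22-fold lower without RA (measured means −3.14 and −6.11, limma adjusted p = 0.000900 over all probes). This probe, too, could be tested only through the RA-containing arrays. The mean over both probes was called lower (change −1.68, adjusted p = 0.00149 by limma), so the call for Gabra3 rests on the choice of probe.

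Several GABA-A genes lie next to each other in the genome. In the RefSeq gene order Gabrg1, Gabra2, Gabra4 and Gabrb1 are neighbours, with at most 1 other protein-coding gene between each and the next. All 4 were at background throughout.

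Among the 4 glycine receptor alpha genes only Glra2, the alpha-2 form typical of embryonic neurons, was tested. It stood at −3.05, −1.86, −1.54 and −2.79 with RA and, without RA, at readings of −6.58, −6.24, −4.76 and −5.78 that did not clear background. The media were far apart. By the rule used for Grin3a the gene was at least 3.94-fold lower without RA (measured means −2.31 and −5.84, limma adjusted p = 0.000153). Under normexp with quantile normalization, with its offset, the change of −0.78 was smaller than this bound. Glrb, the beta subunit that joins alpha subunits and binds gephyrin, did not pass (change 0.071, SE 0.12).

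Genes that assist the glutamate receptors were called in both directions. Of 49 listed auxiliary and scaffold genes 38 were tested. Among these 17 were called lower (44.7%, beside 28.2% of all tested genes) and 8 higher (21.1%, beside 36.1%), and the median of the changes was −0.26, beside 0.07. The 17 include 4 genes that passed the filter through the RA-containing arrays alone and had to be lower. Among the 30 measured on all 8 arrays, 11 were called lower and 8 higher, beside 26.1% and 38.6% of all genes so measured. Without animal 1 or 2 the higher genes numbered 4 and 5. The 4 genes that had to be lower are Neto1, Grid1, Shisa9 and Shisa6. Neto1 is an auxiliary subunit of kainate receptors and Grid1 a delta-type relative of the glutamate channels. Shisa9 and Shisa6 are auxiliary subunits of AMPA receptors. All 4 failed to clear background on every RA-free array. By the rule used for Grin3a, Neto1 was at least 11.6-fold lower, Grid1 at least 2.73-fold, Shisa9 at least 2.65-fold and Shisa6 at least 1.68-fold (limma adjusted p = 0.000103, 7.68e-05, 0.000561 and 0.00285). Measured means with and without RA were −0.75 and −5.61 for Neto1, −2.84 and −6.13 for Grid1, −2.88 and −5.47 for Shisa9, and −3.54 and −5.91 for Shisa6. The normexp values with quantile normalization, −1.83, −0.64, −0.48 and −0.45, fell short of these bounds, but the offset shrinks such values for dim probes. Genes called higher included Cnih3, which aids export of AMPA receptors (0.94, SE 0.12; 0.54 under normexp with quantile normalization), Lrrtm1, a synaptic adhesion protein (0.63; 0.32 under it), and Homer2 and Homer3, scaffolds of group I metabotropic receptors (0.59 and 0.49).

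Partners of the inhibitory receptors numbered 32, of which 25 were tested. Calls were lower for 12 (48%, beside 28.2% of all tested genes) and higher for 4 (16%, beside 36.1%), and the changes had a median of −0.33. Among the 24 measured on all 8 arrays, 11 were called lower and 4 higher, beside 26.1% and 38.6% of all genes so measured. The remaining gene, Plcl1, passed the filter through the RA-containing arrays alone and had to be lower. Plcl1, which binds GABA-A receptors and regulates their traffic, was at least 4.24-fold lower (measured means −2.20 and −5.48; change −0.84 under normexp with quantile normalization, smaller than the bound). Iqsec3, an exchange factor that binds the scaffold gephyrin, fell from 4.65 ± 0.06 to 2.43 ± 0.20 (SD, n = 4; limma adjusted p = 8.58e-05). Kctd12, an auxiliary subunit of GABA-B receptors, fell by 1.18 (SE 0.14) and Trak1, an adaptor of kinesin motors, by 0.92 (SE 0.10). Rdx, a link between membrane proteins and actin, rose by 1.11 (SE 0.09), Plcl2, the relative of Plcl1, by 1.04 (SE 0.10), and Gabrr2, the rho-2 GABA receptor subunit, by 0.71 (SE 0.16). Slc12a2, a chloride importer, rose by 0.30 (SE 0.07), a call lost without animal 4 (adjusted p = 0.0581 by limma), with the 75th percentile of detected probes (0.0526) and under spike-in scaling (0.174); its change was 0.19 under normexp with quantile normalization. Gphn, which encodes gephyrin, did not pass (change −0.18, limma adjusted p = 0.0547).

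Genes that make, move or break down these transmitters went both ways, with 9 called higher (32.1%, beside 36.1% of all tested genes) and 7 lower (25%, beside 28.2%) among the 28 tested of 37 listed, shares near those of all genes. Their changes had a median of 0.024. The increases were led by Shmt1, which interconverts serine and glycine, from −0.71 ± 0.36 to 1.29 ± 0.13 (SD, n = 4; limma adjusted p = 0.000282). Gldc and Gcsh, of the glycine cleavage system, rose by 1.31 (SE 0.09) and 0.63 (SE 0.08), or by 0.63 and 0.39 under normexp with quantile normalization and, for Gcsh, 0.36 under quantile normalization of the processed signal. Gls2, a glutaminase, rose by 0.81 (SE 0.07). Shmt1, Gldc and Gcsh also belong to one-carbon metabolism. Slc1a6, a glutamate transporter, had a change of −1.39 (SE 0.13) and Slc6a9, a glycine transporter, −1.11 (SE 0.10). Slc17a6, the vesicular glutamate transporter VGLUT2, had a change of −0.95 (SE 0.16; −0.21 under normexp with quantile normalization) on 3 RA-containing arrays and 1 RA-free array well above background, a call lost without the block (adjusted p = 0.343 by limma). Of the GABA-synthesizing enzymes, Gad1 stayed at background throughout and Gad2 did not pass (change −0.045, SE 0.36).

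**Figure D4:**
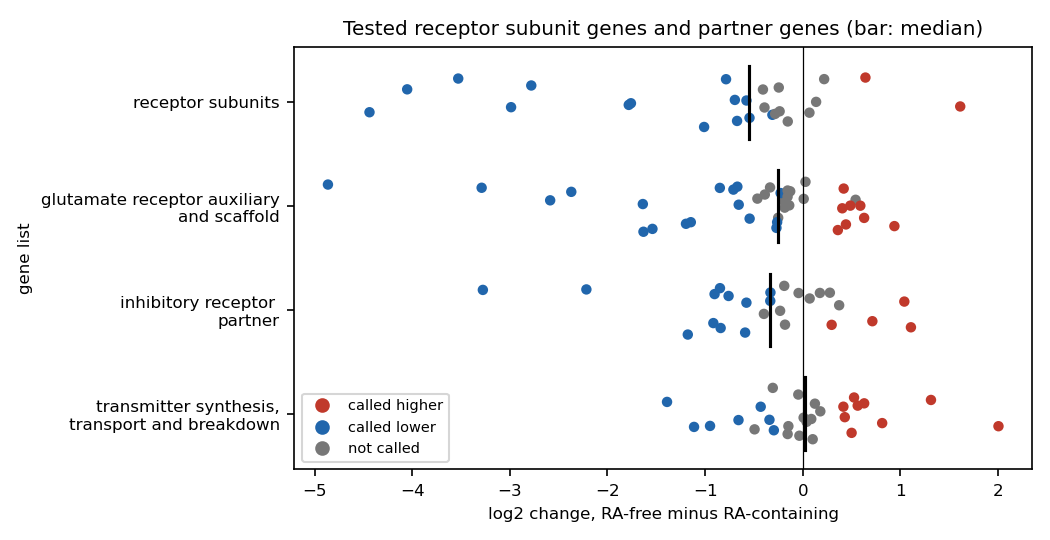
Change, RA-free minus RA-containing medium on the log2 scale, of each tested gene among the receptor subunits (25 genes) and the 3 lists of partner genes (38, 25 and 28 genes), with red points called higher, blue points lower, grey points not called and a bar at the median. Medians lie at −0.55, −0.26, −0.33 and 0.024, in the order of the rows.

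Other cell types of the ganglion could also carry these receptors, and their markers were measured beside them. The marker counts stand beside 28.2% of all tested genes called lower and 36.1% called higher. Among the markers called lower, 1 fibroblast and 2 immune genes passed the filter through the RA-containing arrays alone and had to be lower. Of those measured on all 8 arrays, 3 of 6 fibroblast and 1 of 3 immune markers were called lower. The share of all genes so measured was 26.1%. Schwann and satellite glia markers were called lower for 7 of 12 tested and higher for none, and their summed linear level, in multiples of the array's 75th percentile, was 52.0 to 59.1 with RA and 26.8 to 34.3 without (Erbb3 at background). Fibroblast markers summed to 9.91 to 13.5 with RA and 9.51 to 13.9 without (4 of 7 tested lower, 1 higher; Pdgfra and Lum at background). Immune markers summed to 19.2 to 23.8 and 14.9 to 17.1 (3 of 5 lower; Ptprc and Cd14 at background), and endothelial markers to 8.09 to 10.2 and 8.04 to 9.45 (1 of 2 lower; Cdh5, Tek and Emcn at background). Adrenocortical markers summed to 0.400 to 0.505 and 0.456 to 0.553 (1 of 2 higher; Cyp11a1, Cyp11b1 and Hsd3b1 at background). Sympathetic neuroblast markers summed to 526 to 641 with RA and 584 to 695 without. Of the 12 markers, 4 were called higher and 4 lower (33.3% each), near the shares of all tested genes. The similar sums cover opposite changes. Th rose from a level of 4.24 with RA to 7.83 without (limma adjusted p = 5.34e-05). Dbh fell from 7.62 to 6.09 (limma adjusted p = 0.000271). The part of these shifts in the receptor results was not tested.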

How the data were processed

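The authors deposited 1 Agilent Feature Extraction file per array. Per the file headers, version 11.5.1.1 was run on design 028005 with an annotation on mm9, and the deposited processed intensity had its background and spatial trend removed array by array, with no scaling between arrays. A second deposited table, of log2 values centred per probe, matched the scanner values at a correlation of at least 0.9999; its exact scaling stays unknown. Its column medians were −0.23, −0.22, 0.02 and −0.01 for the RA-containing and −0.07, 0.01, 0.17 and 0.20 for the RA-free arrays. Per the labels, the labelling used 40 or 200 ng of RNA (integrity number over 8), and which array had which amount is not given.

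Outlier spots were dropped, which set aside 64 probes, and no non-control spot was saturated. Signals were put on the log2 scale, the 75th percentile of each array was subtracted and spots of a probe were averaged. Accessions matched 27235 of 55681 probes to a symbol in a RefSeq table of GRCm38.p6, which served for names and gene order. The brightest probe over all arrays stood for a gene. Both media were compared with limma 3.58.1 in R 4.3.3, two-sided, with the animal as a block and Benjamini-Hochberg adjustment over all tested genes; the code was checked on simulated data. The pairing by animal comes from the series' description, which divides each ganglion between the media and gives 4 individual replicates, read with the shared replicate numbers in the labels. The residual correlations of the pairs were 0.52, 0.30, 0.19 and 0.33.

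Alternatives were other scalings, filters, probe rules, the fit without the block and leaving out each animal. The normexp alternative used the median spot signal, with an offset of 50. The offset shrinks log2 changes, most of all for dim probes. Some receptor, partner and marker genes are counted but not reported here. Every other receptor gene is named, with values by array where it was called with a size of 1 or more or was detected on all arrays, and up to 4 called partner genes were chosen in each direction; Gphn, Glrb, Gad1 and Gad2 were added after their values were seen. The members, lists, rules and tests were chosen with earlier results of these data known. Promoter sequences are from RefSeq, GRCm38.p6, matched by symbol.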

Additional observations from a re-analysis of the deposited data

Results flagged for a closer look

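In 3 of the 47 groups of 4 arrays examined for the receptor genes, 1 array stood far from the other 3. Chance alone gives about 1 such group in 20. For Gria2, RA-containing array 2 read −0.16, against 0.41 to 0.52 on the others. For Glra1, RA-free array 4 read −2.34, the only array on which the gene was well above background, against −6.50 to −6.13. For Grin2c, RA-free array 3 read −2.48, against −6.78 to −6.09. Neither Glra1 nor Grin2c was tested.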

How the results depend on the processing

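Of 284 values of the 21 tested receptor genes reported singly under the alternatives, 259 kept their direction and their side of the threshold, 16 lost the call, 6 gained it and 3 changed sign. Those that changed sign were Grm5, at −0.026 with the 75th percentile of detected probes and −0.041 to 0.13 with an animal left out, and Gabbr2, at −0.030 in the mean over its probes. A fit with no replicate block, ignoring the pairing, called 8022 genes (8705 with it) and 1 member higher (2 with it); among the genes named here it ended the calls of Gabbr2 and Slc17a6. Spike-in scaling called 5184 genes in all, 8 members lower, 5 auxiliary and scaffold genes higher and 10 lower, 7 inhibitory partner genes lower and 3 transmitter genes lower. With only probes well above background on all 8 arrays, which left 15 members, 7 were lower and 1 higher. The auxiliary and scaffold genes called higher were 4 with the 75th percentile of detected probes and 4 to 6 with an animal left out, and the members called higher 1 to 2, with 1 left when animal 3 or animal 4 was dropped. The causes were not tested. Signals near background limit the size of every change for genes that were not well above background on all arrays.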
